A study of Rattus norvegicus with 32 samples.

Results

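Crem and 8 other genes that carry cAMP signals to transcription were followed through the left ventricles of 32 Wistar rats. The genes were Crem, Creb1 and Atf1, the Crtc1, Crtc2 and Crtc3 coactivators, and the nuclear receptors Nr4a1, Nr4a2 and Nr4a3. The members were taken by name: every non-control probe whose gene name equalled one of these 9 symbols, in either annotation version of the scanner files, out of 43628 distinct gene names on the array. This gave 25 probes of the 45598 on the array, 5 for Crem, 4 for Creb1, 2 for Atf1, 2 for Crtc1, 1 for Crtc2, 5 for Crtc3, 1 for Nr4a1, 3 for Nr4a2 and 2 for Nr4a3. Of these, 5 carried the member's name in 1 annotation version only. The gene set was selected on the log2 changes of Crem between CLP and sham and between CLP plus landiolol and CLP in these hearts, so the Crem values in the 3 comparisons are given as a description, with no p-value. The Crem probes past the array-wide threshold are counted only beside the share of all probes past it, and nothing is read from that count. All 25 probes were kept by the filter on dim probes in both sexes.

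Male and female rats underwent sham surgery or cecal ligation and puncture (CLP), an operation that causes abdominal sepsis, and the heart was collected at 20 h. The sham and CLP groups received saline and the CLP plus landiolol group received landiolol, a short-acting β1-adrenergic blocker, starting after CLP. In each sex there were 5 sham, 5 CLP and 6 CLP plus landiolol animals, each read on its own 1-colour Agilent array. Every animal had been given buprenorphine and every heart went through magnetic resonance imaging in the animal and then an isolated Langendorff perfusion before the ventricle was frozen, so no heart was sampled directly from the animal. 

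β1-adrenergic receptors raise cAMP in cardiac myocytes, and protein kinase A then phosphorylates Creb1, Atf1 and Crem, which bind the cAMP response element in target promoters. Crem gives rise to activators and repressors from 1 gene. Its internal promoter carries cAMP response elements and makes ICER, a short repressor that ends its own induction. The Crtc proteins are coactivators that enter the nucleus when dephosphorylated, and the Nr4a genes are immediate early genes and textbook targets of Creb1.

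Crem has alternative exons for the DNA-binding domain, and 1 probe ends at the stop codon of each. The exons were assigned from the end codons of the probes and general knowledge of Crem, with no transcript annotation. By that knowledge, transcripts with the first exon also contain the second one beyond their stop codon. The probe on the first exon would then read only part of the Crem transcripts and the other probes both kinds, which was not checked. The probe sequences, from the scanner files, are shown 5′ to 3′ with the stop codon in capitals, since these 2 probes end at different stop codons. The first lies at chr17:62835959-62836018 and the second at chr17:62836355-62836414 in the rn4 build, on the plus strand.
A_64_P126493: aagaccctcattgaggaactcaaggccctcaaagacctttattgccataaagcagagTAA
A_64_P042283: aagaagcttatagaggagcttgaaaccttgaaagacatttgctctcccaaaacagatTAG
The 2 probes match at 39 of 60 positions. The remaining probes, A_44_P1159383, A_44_P1159378 and A_44_P1089096, lie farther along the gene, at chr17:62836427-62836486, chr17:62836962-62837021 and chr17:62838310-62838369.

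RefSeq promoter windows of the GRCr8 build, from 250 bases before to 50 bases after each annotated start, were given for 7 of the 9 genes in 10 windows. The full cAMP response element TGACGTCA, which reads the same on both strands, was present in 1.83% of all 33469 windows. Among the members it was found in Crem alone, once in the window of 1 internal start and 2 times in that of another, while the window of the upstream start held none. The stretches around the copies before the start are shown with the element in capitals, on the plus strand of chromosome 17.
Crem, chr17:58984716-58984776: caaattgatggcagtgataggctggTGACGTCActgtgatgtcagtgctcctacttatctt
Crem, chr17:58985430-58985489: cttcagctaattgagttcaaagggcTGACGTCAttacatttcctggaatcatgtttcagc
The core TGACG, counted on both strands so that each full element counts 2 times, was found in 21.2% of all windows. Nr4a1 had 4 copies, all before the start and none part of a full element, shown here in capitals on chr7:134259888-134260117.
Nr4a1: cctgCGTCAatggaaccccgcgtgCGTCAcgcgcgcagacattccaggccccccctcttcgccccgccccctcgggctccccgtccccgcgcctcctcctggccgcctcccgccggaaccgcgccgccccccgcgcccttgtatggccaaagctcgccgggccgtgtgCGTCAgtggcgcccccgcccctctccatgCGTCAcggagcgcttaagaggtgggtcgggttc
Creb1 had 3 copies of the core in 1 of its 2 windows, Crtc2 and Nr4a2 had 1 each, and the windows of Crtc1 and Crtc3 had none. A match is a string of letters and was not measured as a bound site.

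Levels are log2 signals after quantile normalisation within a sex, and they are compared for the same probe only, not between probes or sexes. Whether the groups of a probe overlapped is a description. The share of all probes with groups apart was not counted, so nothing is read from it. In whole ventricle, fewer cells of a type and less RNA per cell cannot be told apart. All 6 cardiomyocyte markers were kept on the arrays, with a mean level between 15.91 and 16.90 in every sample, and no cardiomyocyte marker passed the test in any of the 6 comparisons. The neutrophil markers kept had higher mean levels in the other groups than in sham. Of the 5 markers 2 were kept, S100a8 and S100a9. Their mean level lay between 2.64 and 4.50 in sham, 5.64 and 8.52 in CLP and 6.27 and 9.05 in CLP plus landiolol over both sexes. A probe was kept when well above background in any group, and the sham levels of these 2 were low. Their difference may thus come with the filter and is given as a description only. The 5 macrophage and monocyte markers had mean levels between 8.10 and 8.79 in sham, between 8.62 and 9.66 in CLP and between 8.33 and 9.42 in CLP plus landiolol. Limma called 2 of them higher in male CLP vs sham and 2 in male CLP plus landiolol vs sham, beside 7.81% and 4.15% of all probes. In the same female comparisons it called 1 and 1 higher, beside 3.63% and 5.25%. None was called in CLP plus landiolol vs CLP in either sex. In each sex the mean of both lists was higher in the CLP plus landiolol group than in sham. Of 6 T and NK cell markers 5 were tested in males and 4 in females. Gzmb, a granzyme of cytotoxic cells, fell by 1.84 (SE 0.36, adjusted p = 0.0042 by limma) in female CLP vs sham and by 1.56 (SE 0.34, adjusted p = 0.00733) in female CLP plus landiolol vs sham, and no marker of the list was called in males, where the median for CLP vs sham was -0.75. The shares of all probes called in these 2 female comparisons were 3.63% and 5.25%. The mean level of the list lay between 7.47 and 8.01 in sham, 6.85 and 7.43 in CLP, 7.20 and 8.01 in CLP plus landiolol in males, and between 8.26 and 8.82 in sham, 7.45 and 8.26 in CLP, 7.78 and 8.18 in CLP plus landiolol in females. Of 4 fibroblast markers Tcf21 rose by 1.25 (SE 0.26, adjusted p = 0.00451) and Col1a1 fell by 2.11 (SE 0.38, adjusted p = 0.00154 by limma) in male CLP vs sham. Of all probes 7.81% were called there. All 4 markers had an unadjusted p under 0.05 by limma in that comparison, beside 28.8% of all probes. Tcf21 was also higher in male CLP plus landiolol vs sham, by 1.44, and no fibroblast marker was called in females. Their mean level lay between 11.51 and 12.03 in sham, 11.32 and 12.04 in CLP, 11.42 and 12.35 in CLP plus landiolol in males, and between 11.64 and 12.19 in sham, 11.24 and 12.25 in CLP, 11.75 and 12.19 in CLP plus landiolol in females. Of 5 endothelial markers only Kdr was called, 0.87 higher in female CLP plus landiolol vs sham, where 5.25% of all probes were called. None of the 3 smooth muscle markers was called. None of the 3 B cell markers was kept. The part of these cells in the results below was not tested. The share of probes well above background ranged from 50.3% to 67.0% between arrays. Males and females were on separate slides, 2 for each sex, and each slide held all 3 groups of its sex. In females every sham array lay in the first row of its slide and every CLP plus landiolol array in the second, while CLP arrays lay in both rows. With the array row as a term, the probes called for female CLP plus landiolol vs sham numbered 20 in place of 1332.

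Crem was higher in septic hearts than in sham hearts on 4 of its 5 probes, and with landiolol its range overlapped that of sham. The level of CREM protein or of ICER itself was not measured here. The second DNA-binding exon (A_64_P042283) read 10.53, 11.02, 10.46, 10.79 and 10.49 in the 5 male sham hearts and 11.98, 11.81, 12.42, 12.40 and 12.10 in the 5 male CLP hearts. In the 6 male CLP plus landiolol hearts it ran from 10.15 to 10.92 with a median of 10.55. Every male CLP heart was above every heart of the other groups, and the sham and landiolol ranges overlapped. The log2 difference was 1.48 (SE 0.17) for CLP vs sham, -1.62 (SE 0.16) for CLP plus landiolol vs CLP, and -0.13 (SE 0.16) for CLP plus landiolol vs sham.

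In females the same exon read 11.20, 11.53, 11.28, 10.54 and 11.34 in sham and 12.55, 12.17, 12.31, 12.30 and 11.83 in CLP. With landiolol it ran from 10.14 to 11.52, with a median of 10.96. Again no CLP heart overlapped the other groups, and the landiolol range reached below the lowest sham heart. The log2 difference was 1.05 (SE 0.24) for CLP vs sham, -1.30 (SE 0.23) for CLP plus landiolol vs CLP and -0.25 (SE 0.23) for CLP plus landiolol vs sham.

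The first DNA-binding exon (A_64_P126493) followed the same order. In males it read 8.64, 9.61, 8.80, 9.19 and 8.77 in sham, 9.88, 10.11, 10.76, 10.59 and 10.58 in CLP, and from 8.24 to 9.35 with a median of 8.74 in CLP plus landiolol. The male CLP hearts were again apart from both other groups. The log2 differences were 1.38 (SE 0.25) for CLP vs sham and -1.61 (SE 0.24) between landiolol-treated and untreated CLP hearts. The female hearts read 9.38, 9.91, 9.38, 8.55 and 9.44 in sham, 10.36, 10.00, 10.49, 10.36 and 9.36 in CLP, and from 7.63 to 9.43 with a median of 9.06 with landiolol. Here 1 CLP heart, at 9.36, lay within the other groups, and the differences were 0.78 (SE 0.33) and -1.21 (SE 0.31). Both probes at a DNA-binding end thus had higher mean levels in CLP hearts than in the other groups of the same sex.

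**Figure D1:**
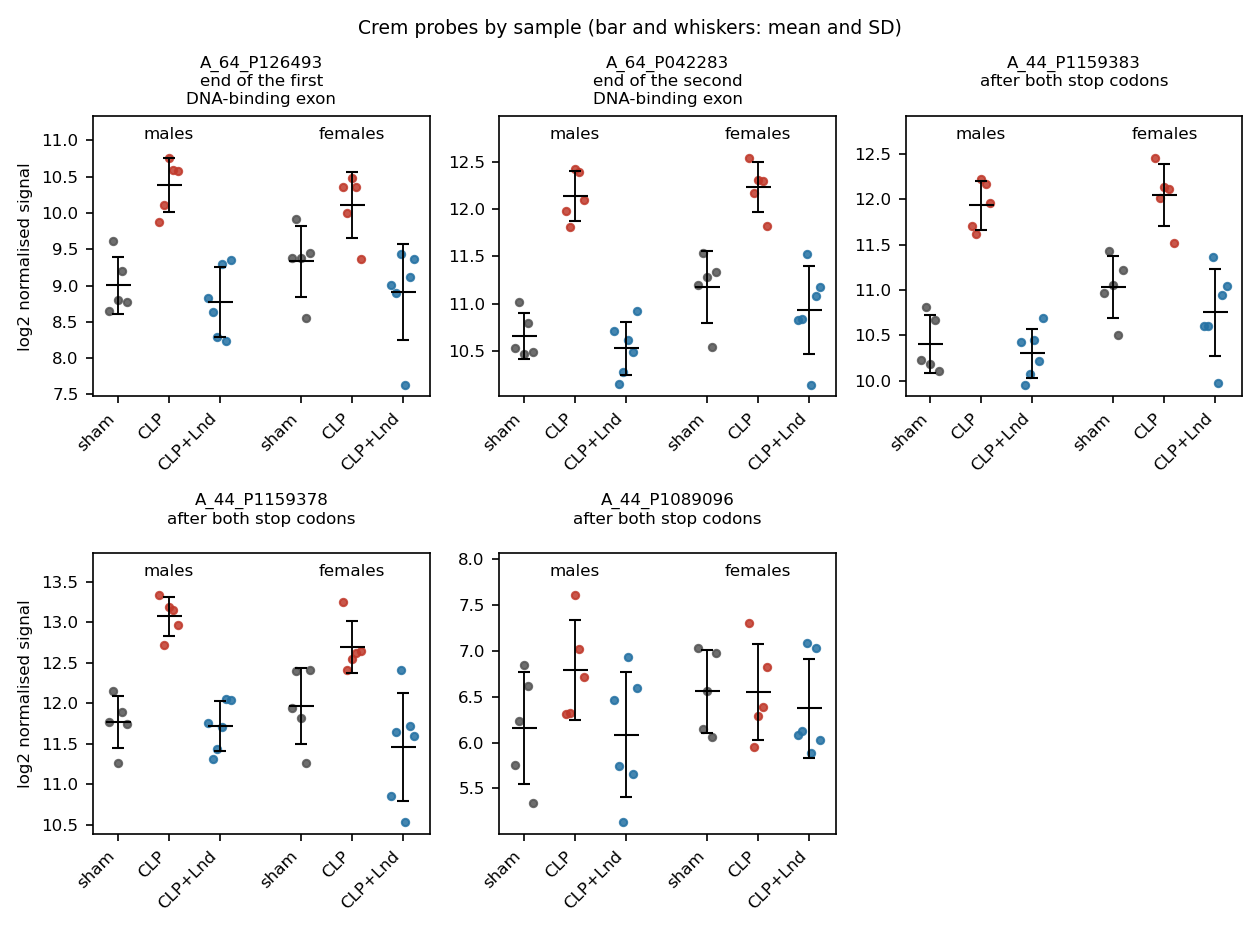
Log2 normalised signal of the 5 Crem probes in each of the 32 hearts, ordered along the gene, with males left and females right in each panel. Points are single hearts, and the bar and whiskers are the group mean and SD. On 4 probes in males and 3 in females every CLP heart (red) sits above sham (grey) and CLP plus landiolol (CLP+Lnd, blue). The share of all probes with such a pattern was not counted. On A_64_P126493 1 female CLP heart, at 9.36, lies within the other groups, and on the dim probe A_44_P1089096 the groups overlap.

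Of the probes beyond both stop codons, A_44_P1159378 was the brightest Crem probe. It read 11.77, 12.15, 11.27, 11.89 and 11.74 in male sham hearts, 13.34, 12.72, 13.19, 13.14 and 12.96 in male CLP hearts, and from 11.31 to 12.05 with a median of 11.73 with landiolol. In females it read 11.94, 12.39, 11.82, 11.26 and 12.40 in sham, 13.24, 12.41, 12.55, 12.61 and 12.64 in CLP, and from 10.53 to 12.40 with a median of 11.62 with landiolol. The female groups touched without overlapping, with the lowest CLP heart at 12.41 and the highest sham and landiolol hearts at 12.40. The CLP level was 2.47-fold that of sham in males and 1.66-fold in females, and landiolol hearts held 39.1% and 42.5% of the CLP level. A_44_P1159383 gave the largest male difference, 1.53 (SE 0.18) for CLP vs sham and -1.63 (SE 0.17) for CLP plus landiolol vs CLP, and in females 1.01 (SE 0.24) and -1.29 (SE 0.23).

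The probe farthest along the gene, A_44_P1089096, was the exception. It was well above background on all 32 arrays but dim, with levels from 5.13 to 7.61, and its groups overlapped in every comparison. The difference for CLP vs sham was 0.63 (SE 0.37) in males and -0.01 (SE 0.30) in females. For CLP plus landiolol vs CLP it was -0.71 (SE 0.35) and -0.18 (SE 0.29). Its correlation with the other Crem probes over the 16 arrays of a sex was 0.50 to 0.74 in males and 0.31 to 0.56 in females, whereas the other 4 probes correlated with each other at 0.869 to 0.997 in males and 0.866 to 0.995 in females. With the group means removed, the correlations among those 4 were 0.35 to 0.97 in males and 0.72 to 0.98 in females. Probes of 1 gene share the hearts and are not replicates.

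By the size of the male CLP plus landiolol vs CLP difference, the 4 bright Crem probes ranked 95, 96, 97 and 192 among 25866 probes, counted over both directions. For male CLP vs sham they ranked between 718 and 1074. In females they ranked between 209 and 292 for CLP plus landiolol vs CLP and between 1651 and 3465 for CLP vs sham, of 25395 probes. Crem was chosen on these changes, so the ranks describe their size and are not evidence for them.

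For A_64_P042283 the differences had the same direction on each slide. CLP minus sham was 1.29 and 1.67 on the 2 male slides and 0.96 and 1.19 on the 2 female slides. CLP plus landiolol minus CLP was -1.69 and -1.57 in males and -1.09 and -1.51 in females. Each of these values rests on 2 or 3 hearts per group. The slides are parts of the comparisons that Crem was chosen on, so the values are a description and no support. On the dim probe A_44_P1089096 the female CLP minus sham values were -0.69 and 0.70, opposite on the 2 slides.

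Whether females and males differed in a change was asked with an interaction term of sex and treatment over all 32 arrays. The female minus male difference in CLP vs sham was -0.41 for A_64_P042283 (95% interval -1.01 to 0.19) and -0.57 for A_44_P1159378 (-1.33 to 0.19). For CLP plus landiolol vs CLP it was 0.29 (-0.29 to 0.87) and 0.11 (-0.62 to 0.84). None of the 25 member probes passed limma's interaction test at an FDR of 5% in either comparison, and none reached an unadjusted p of 0.05. Over the whole array 0 of 26492 probes passed (0% in CLP vs sham and 0% in CLP plus landiolol vs CLP), with 995 and 1307 probes at an unadjusted p under 0.05. The widest Crem intervals were those of A_44_P1089096 (-1.65 to 0.36 and -0.43 to 1.49), and no interval was narrow enough to show that the sexes were alike.

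At the thresholds used for all genes, an FDR of 1% when a group was set against sham and 5% between CLP hearts with and without landiolol, the Crem probes past the threshold in males were 4 of 5 for CLP vs sham, where 7.81% of all probes were called, and also 4 when landiolol was compared with CLP alone, where 1.56% were called. In females they were 0 of 5 for CLP vs sham (3.63% of all probes) and 2 when landiolol was compared with CLP alone (0.0945%). For CLP plus landiolol vs sham none was past it in males (4.15%) or females (5.25%). These counts describe a gene chosen for its change and are not evidence for it. The female counts moved with the settings and with single hearts left out, between 0 and 2 in both CLP vs sham and CLP plus landiolol vs CLP.

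None of the 20 probes of the other 8 genes passed limma's test in any of the 6 comparisons. At an unadjusted p under 0.05 there were 6 probes for male CLP vs sham, 2 for male CLP plus landiolol vs CLP, 2 for male CLP plus landiolol vs sham, and 4, 0 and 5 for the same comparisons in females. Over all probes the share at an unadjusted p under 0.05 was 28.8%, 14.8% and 24.2% in males and 23.1%, 9.34% and 26.7% in females, in the same order, so 6 of 20 in male CLP vs sham lay near the background. SAM, the permutation method the study used, called 3 of the 20 for male CLP vs sham, Crtc3 A_44_P823554 and Nr4a2 A_44_P1086200 and A_44_P522524. It called 1, Nr4a2 A_44_P522524, for female CLP plus landiolol vs sham and none in the other comparisons. Over all probes SAM called 10.1% for male CLP vs sham and 11.5% for female CLP plus landiolol vs sham.

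**Figure D2:**
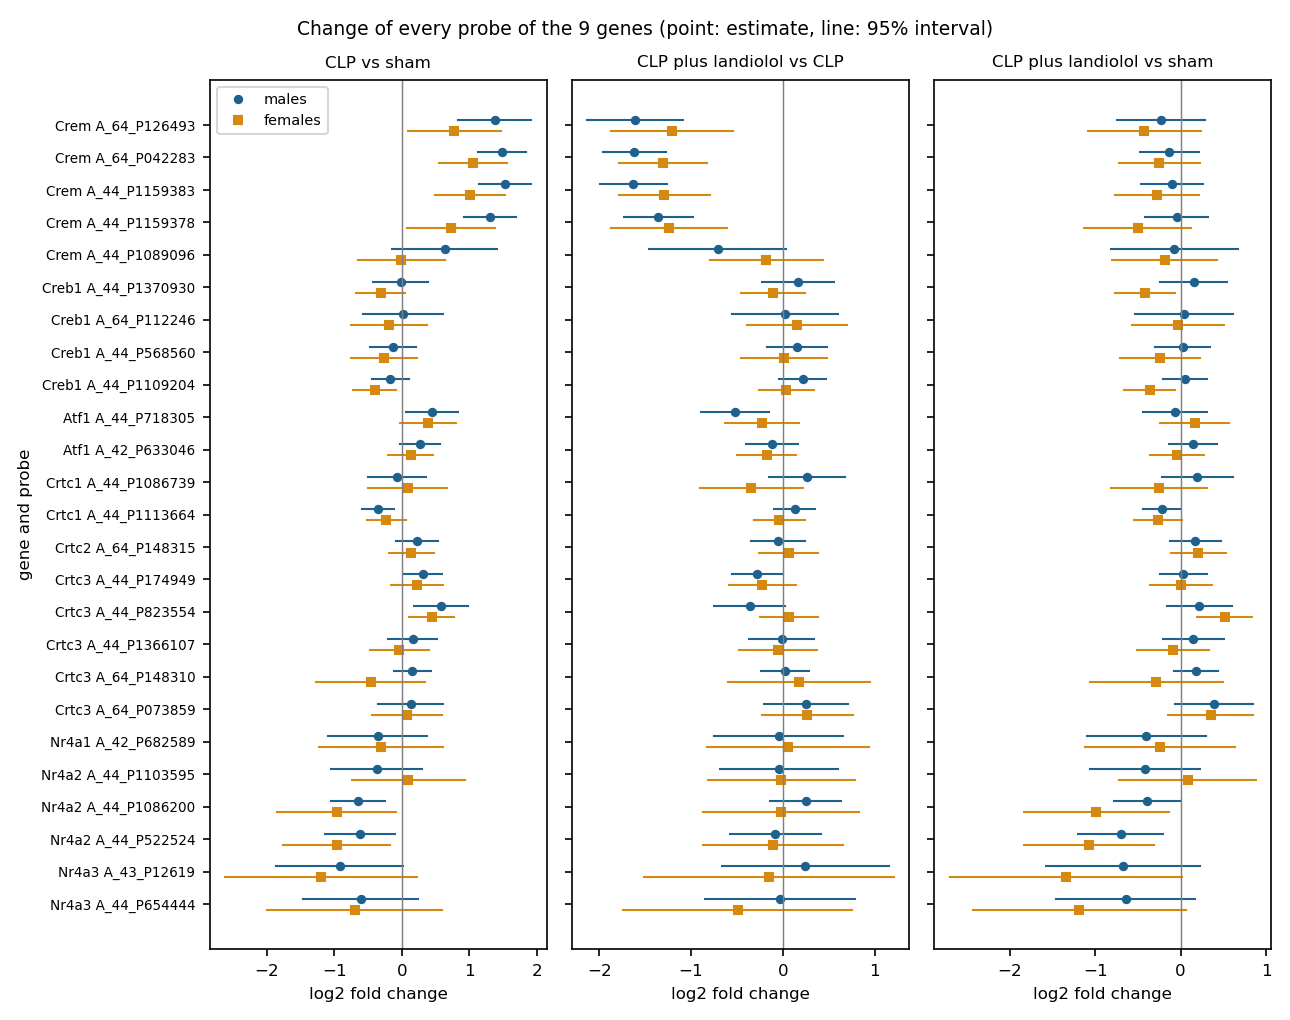
Log2 fold change of all 25 probes in the 3 comparisons, with males as blue circles, females as orange squares and lines for the 95% interval of the limma fit. The 4 bright Crem probes lie between 0.73 and 1.53 in CLP vs sham and between -1.63 and -1.21 in CLP plus landiolol vs CLP, and the intervals of most other probes include 0.

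Creb1, the constitutive activator of the family, was measured by 4 probes on chromosome 9. Its brightest probe, A_44_P1109204, read 9.46, 9.33, 9.24, 9.04 and 9.21 in male sham and 9.52, 9.04, 8.91, 9.06 and 8.92 in male CLP hearts, and from 9.13 to 9.47 with a median of 9.31 with landiolol. All male groups overlapped. In females it read 9.36, 9.53, 9.02, 9.23 and 9.48 in sham, 9.15, 8.64, 8.61, 8.95 and 9.27 in CLP, and from 8.84 to 9.13 with a median of 8.93 with landiolol. The female CLP vs sham difference was -0.40 (SE 0.15, adjusted p = 0.105 by limma), with the groups overlapping. The other Creb1 probes differed from sham by -0.31 to 0.02 in the 2 CLP vs sham comparisons. Their signs were not uniform, but the probes correlated at 0.51 to 0.87 within a sex.

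Atf1, the closest relative of Creb1 and like it a target of protein kinase A, was measured by 2 probes. The bright probe A_42_P633046 ranged from 11.12 to 12.05 over all hearts, and its CLP vs sham difference was 0.27 (SE 0.14) in males and 0.13 (SE 0.16) in females (adjusted p = 0.226 and 0.683 by limma). The dimmer probe A_44_P718305 read 6.27, 6.999, 6.97, 7.05 and 6.60 in male sham, 6.91, 7.10, 7.33, 7.31 and 7.49 in male CLP, and from 6.32 to 7.23 with a median of 6.68 in male CLP plus landiolol hearts. The male CLP mean was the highest of the 3, but the ranges overlapped. Its difference was 0.45 (SE 0.18, adjusted p = 0.111) for CLP vs sham and -0.52 (SE 0.17, adjusted p = 0.171) for CLP plus landiolol vs CLP by limma.

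The Crtc coactivators had small differences that went opposite ways. Crtc1 A_44_P1113664 read 10.21, 9.99, 10.02, 9.96 and 10.13 in male sham and 9.88, 9.78, 9.62, 9.60 and 9.68 in male CLP hearts, with 9.61 to 10.15 and a median of 9.84 with landiolol. The male CLP range lay below the sham range, by -0.35 (SE 0.11, adjusted p = 0.0411 by limma), which passed 5% but not 1%. In females the difference was -0.23 (SE 0.14, adjusted p = 0.359). The other Crtc1 probe was dim, with levels from 4.30 to 6.34. Its CLP vs sham difference was -0.07 in males and 0.09 in females. For CLP plus landiolol vs CLP it was 0.27 and -0.34.

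Crtc2 was measured by 1 probe, which ranged from 9.30 to 10.19 over all hearts. Its CLP vs sham difference was 0.22 (SE 0.15, 95% interval -0.09 to 0.53) in males and 0.14 (SE 0.16, -0.19 to 0.48) in females, and for CLP plus landiolol vs CLP it was -0.05 (SE 0.14) and 0.06 (SE 0.15).

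Crtc3 was measured by 5 probes, of which A_44_P1366107 and A_64_P148310 share the same coordinates on chromosome 1 (chr1:136763984-136764043, rn4) and were each well above background on 9 of 16 female arrays. A_44_P823554 read 5.62, 5.25, 5.34, 5.28 and 5.66 in male sham and 5.96, 6.09, 6.05, 6.11 and 5.84 in male CLP hearts, and from 4.76 to 5.96 with a median of 5.81 with landiolol. In females it read 4.72, 5.52, 5.38, 5.29 and 5.34 in sham, 5.52, 5.80, 5.88, 5.54 and 5.74 in CLP, and from 5.50 to 6.03 with a median of 5.76 with landiolol. CLP hearts lay at or above the highest sham heart in both sexes. The CLP vs sham difference was 0.58 (SE 0.19, adjusted p = 0.049) in males and 0.45 (SE 0.16, adjusted p = 0.0905) in females by limma. Female CLP plus landiolol hearts differed from sham by 0.51 (SE 0.15, adjusted p = 0.0346 by limma). This value and that of male CLP vs sham passed 5% but not 1%. The female sham and CLP plus landiolol arrays lay in different rows of the slides, which cannot be told apart from the treatment. The brighter Crtc3 probe A_44_P174949 differed from sham by 0.31 (SE 0.14) and 0.22 (SE 0.18), and the probes of this gene correlated poorly, between -0.32 and 0.65. In male CLP hearts A_64_P073859, A_44_P1366107 and A_64_P148310 differed from sham by 0.13, 0.16 and 0.16. In female CLP hearts the values were 0.08, -0.04 and -0.46.

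The Nr4a genes, which encode inducible orphan nuclear receptors, had CLP means below sham on their bright probes. Nr4a2 A_44_P1086200 read 10.88, 10.86, 10.86, 10.66 and 10.92 in male sham and 10.496, 10.19, 10.15, 9.77 and 10.35 in male CLP hearts, so that the groups did not overlap. With landiolol it ran from 10.01 to 11.02, with a median of 10.35. The CLP vs sham difference was -0.65 (SE 0.19, adjusted p = 0.03 by limma). The female hearts read 10.59, 10.68, 11.60, 10.70 and 11.70 in sham, 11.47, 9.28, 9.35, 10.00 and 10.36 in CLP, and from 9.17 to 10.99 with a median of 10.15 with landiolol. The female groups overlapped and the difference was -0.97 (SE 0.42, adjusted p = 0.172). The second bright probe, A_44_P522524, gave -0.62 (SE 0.24) in males and -0.97 (SE 0.38) in females, and the 2 differences from sham with landiolol were -0.70 (SE 0.23, adjusted p = 0.0708) and -1.07 (SE 0.36, adjusted p = 0.0624). A_44_P1103595, named Nr4a2 in 1 annotation version only, was well above background on 20 of 32 arrays. It differed from sham by -0.37 in male and 0.10 in female CLP hearts.

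Nr4a1 was measured by 1 probe, with 10 spots per array averaged into 1 value. It read 14.22, 15.16, 14.89, 15.12 and 14.70 in male sham, 14.21, 14.25, 14.78, 14.52 and 14.55 in male CLP, and from 13.32 to 15.51 with a median of 14.55 in male CLP plus landiolol hearts. In females it read 12.67, 14.78, 15.31, 15.17 and 15.02 in sham, 14.90, 13.89, 13.97, 14.86 and 13.81 in CLP, and from 13.81 to 15.00 with a median of 14.14 with landiolol. The groups overlapped in both sexes, and 1 female sham heart lay more than 2 log2 units below the others in its group. The CLP vs sham difference was -0.36 (SE 0.34, adjusted p = 0.561) in males and -0.30 (SE 0.43, adjusted p = 0.742) in females by limma. Without that female sham heart, replicate 1, the female difference for Nr4a1 A_42_P682589 was -0.78 and was still not called.

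Nr4a3 varied widely from heart to heart. On A_43_P12619 the male sham hearts ran from 9.07 to 11.31 and the female landiolol hearts from 6.82 to 9.88. The differences for CLP vs sham were -0.92 (SE 0.45, adjusted p = 0.186) and -1.20 (SE 0.67, adjusted p = 0.311) by limma. The 95% intervals, -1.87 to 0.02 and -2.62 to 0.22, run from a large decrease to none. Its other probe, A_44_P654444, gave -0.61 (SE 0.40) and -0.70 (SE 0.61), and the 2 probes correlated at 0.91 in males and 0.94 in females.

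**Figure D3:**
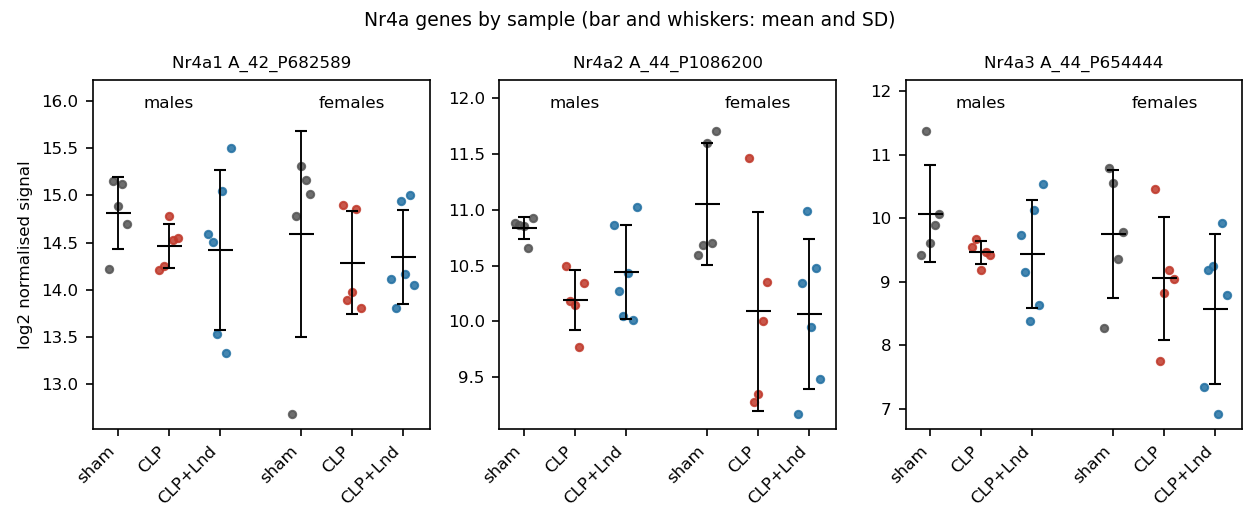
Log2 normalised signal of the highest probe of Nr4a1, Nr4a2 and Nr4a3 in each heart, males left and females right, with the mean and SD of each group. Sham (10.66 to 10.92) and CLP (9.77 to 10.496) are apart for Nr4a2 in males and overlap in the other panels and in females, and 1 female sham heart is low for Nr4a1 at 12.67.

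With the group means removed, Nr4a1 correlated over the 16 male arrays with Fos at 0.83, with Fosb at 0.82, with Egr1 at 0.78 and with Dusp1 at 0.88. In females the values were 0.83, 0.83, 0.88 and 0.20. The female values for Fos and Fosb rested on sham replicate 1, the heart with the low Nr4a1 level. Leaving it out, a choice made after seeing the data, gave 0.43 for Fos, 0.39 for Fosb and 0.63 for Egr1 over 15 arrays. Rank correlations over all 16 female arrays, with group means kept, were 0.41, 0.46 and 0.60. Nr4a1 correlated with Nr4a3 at 0.78 in males and 0.62 in females (0.51 without that heart) and with Nr4a2 at 0.57 and 0.52 (0.61 without it). Nr4a2 correlated with Fos at 0.28 and 0.08. These values are descriptions over hearts that share slides and the perfusion procedure.

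The reported Crem probe correlated with Nr4a1 at -0.03 in males and 0.12 in females over all arrays of a sex, and at 0.17 and 0.23 with the group means removed. For Nr4a3 A_43_P12619 the values were -0.05 and 0.45 over all arrays, and 0.70 and 0.74 with the group means removed. The other Nr4a3 probe, A_44_P654444, gave 0.44 and 0.72 with the group means removed. For Nr4a2 those values were 0.21 and 0.62 on A_44_P1086200 and 0.16 and 0.55 on A_44_P522524. Within groups Crem thus varied with Nr4a3 in both sexes more than with Nr4a1, as a description of these hearts with no test.

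The wider pathway was read through lists of genes. Of the 11 other CREB and ATF relatives, 9 were tested in each sex and none passed limma's test in any comparison. Their median log2 difference was 0.01 for male and -0.04 for female CLP vs sham, beside 0.01 and -0.01 for all probes. At an unadjusted p under 0.05 there were 2 in male CLP vs sham, 1 in male CLP plus landiolol vs CLP, 2 in male CLP plus landiolol vs sham and none in females, beside the shares of all probes given above, 28.8%, 14.8% and 24.2% in males. SAM called 1, Creb5, in male CLP vs sham, a gene named here after its values were seen, where 10.1% of all probes were called by SAM. Of the 3 CREB coactivators listed, Crebbp, Ep300 and Fhl5, 2 were tested and none passed. At an unadjusted p under 0.05 there were 1 for male CLP vs sham, 2 for male CLP plus landiolol vs sham and none elsewhere, and SAM called none.

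Of 20 kinases and phosphatases that act on CREB and the Crtc proteins, 19 were tested in males and 18 in females. In males 1 rose and 1 fell in CLP vs sham, where 7.81% of all probes were called. In females 1 rose, beside 3.63% of all probes. At an unadjusted p under 0.05 there were 4 in each sex, beside 28.8% and 23.1% of all probes. The median difference of the list was 0.05 in males and -0.03 in females. The gene that rose in both sexes was Rps6ka5, which encodes MSK1, a nuclear kinase that phosphorylates CREB and histone H3. It read 8.97, 9.17, 9.26, 9.59 and 8.94 in male sham and 10.37, 10.39, 10.91, 10.61 and 10.51 in male CLP hearts, and from 8.99 to 9.92 with a median of 9.27 with landiolol. In females it read 9.51, 9.63, 8.68, 9.46 and 9.19 in sham, 10.15, 10.14, 10.84, 10.76 and 10.70 in CLP, and from 9.53 to 10.16 with a median of 9.74 with landiolol.

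Every CLP heart was above every sham heart for Rps6ka5 in both sexes. By limma it rose by 1.37 (SE 0.18, adjusted p = 0.000114) in males and 1.22 (SE 0.20, adjusted p = 0.00152) in females, and the female call was lost with the array row as a term. With landiolol it fell relative to CLP by 1.23 (SE 0.17, adjusted p = 0.00332) in males. The female value was -0.69 (SE 0.19, adjusted p = 0.21), and its landiolol range overlapped CLP. It was the only listed kinase or phosphatase called in male CLP plus landiolol vs CLP, where the list had 2 genes at an unadjusted p under 0.05. Of all probes 1.56% were called there and 14.8% had an unadjusted p under 0.05. No gene of the list was called in female CLP plus landiolol vs CLP (2 at an unadjusted p under 0.05) or in the comparisons of landiolol with sham (4 in males and 1 in females), where 9.34%, 24.2% and 26.7% of all probes passed it. In these comparisons SAM called only Rps6ka1, in male CLP plus landiolol vs sham, a gene named here after its values were seen. Over all probes SAM called 5.79% there.

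Prkaca, the main catalytic subunit of protein kinase A, read 15.38, 15.30, 15.24, 15.34 and 15.46 in male sham and 15.16, 15.03, 14.80, 14.73 and 14.74 in male CLP hearts. It fell by 0.45 (SE 0.10, adjusted p = 0.00739 by limma) in males. This call stood close to the threshold and was lost under 14 of 25 alternatives, with values from -0.52 to -0.39 over all of them. These were scaling to the 75th percentile, fitting only the 2 groups compared, the array row as a term, and leaving out any 1 of the 5 male sham hearts, CLP replicates 3, 4 or 5, or CLP plus landiolol replicates 2, 3 or 6. SAM, which was not among the 25, did not call Prkaca in male CLP vs sham. In females the difference was -0.29 (SE 0.12, adjusted p = 0.157 by limma).

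Of 19 textbook CREB target genes 16 were tested in each sex. Their median difference was 0.18 for male and 0.20 for female CLP vs sham, and -0.11 and -0.04 for CLP plus landiolol vs CLP, where the medians of all probes were -0.01 and 0.03. The only gene called was Ppargc1a, a coactivator of mitochondrial genes, which fell by 1.54 (SE 0.28, adjusted p = 0.00304 by limma) in female CLP vs sham. Of all probes 3.63% were called there. The list had 4 genes at an unadjusted p under 0.05 there, beside 23.1% of all probes. Ppargc1a read 9.97, 9.83, 8.80, 9.18 and 8.97 in female sham and 7.98, 8.10, 8.18, 8.08 and 6.69 in female CLP hearts, which did not overlap. In males the difference was -1.03 (SE 0.47, adjusted p = 0.163), and 1 CLP heart, at 9.59, was above every male sham heart. Without that heart the male value passed the threshold at -1.56. The female call was lost with only the 2 groups in the fit and with the array row as a term.

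None of the target genes was called in the other 5 comparisons. At an unadjusted p under 0.05 there were 6 for male CLP vs sham, 3 for male CLP plus landiolol vs CLP, 1 for male CLP plus landiolol vs sham, 1 for female CLP plus landiolol vs CLP and 3 for female CLP plus landiolol vs sham. The 6 of 16 stand beside 28.8% of all probes, the 3 of 16 in male CLP plus landiolol vs CLP beside 14.8% and the 3 of 16 in females beside 26.7%. SAM called Areg and Pde4b in male CLP vs sham, Nfil3 in male CLP plus landiolol vs CLP, and Per2 and Ppargc1a in female CLP plus landiolol vs sham. Over all probes SAM called 10.1%, 3.25% and 11.5% in these comparisons. Apart from Ppargc1a these genes are named after their values were seen.

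**Figure D4:**
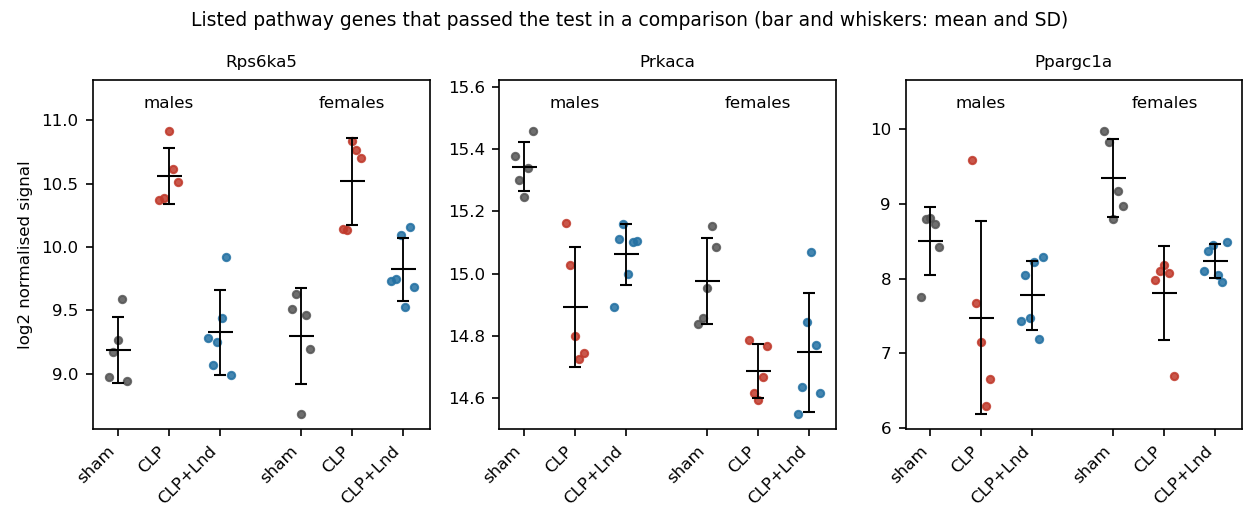
Log2 normalised signal of Rps6ka5, Prkaca and Ppargc1a, the 3 listed pathway genes that passed limma's test in a comparison, in each heart with the group mean and SD, males left and females right. Rps6ka5 in CLP hearts (10.14 to 10.91) lies above all sham hearts (8.68 to 9.63) in both sexes.

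The genes with the pattern most like that of the brightest Crem probe were sought among 12455 named genes kept in both sexes, by the lower of the Pearson correlations over the 16 male and the 16 female arrays. They were Adamts9 (0.79 in males and 0.81 in females), Arhgap23 (0.78 and 0.75), Slk (0.84 and 0.74), Tbx20 (0.73 and 0.83) and Adora3 (0.84 and 0.72). With the group means removed, the values were -0.05 and 0.63 for Adamts9, 0.68 and 0.53 for Arhgap23, 0.23 and 0.33 for Slk, 0.57 and 0.69 for Tbx20, and 0.14 and 0.40 for Adora3. For Adamts9, Slk and Adora3 the male likeness was thus mostly between groups, and for Arhgap23 and Tbx20 it was present within groups as well. The Adora3 probe was well above background on 5 of 5 male and 4 of 5 female CLP arrays, on 1 of 5 sham arrays in each sex and on no CLP plus landiolol array. It passed the filter on dim probes only through the CLP group, so its higher level in CLP is no independent result.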

How the data were processed

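Left ventricular RNA of 32 rats was hybridised to 1-colour Agilent arrays. The deposited scanner files hold spot intensity from Agilent Feature Extraction 10.5, per the submitters' processing notes, with background subtracted by that software, and the table of values deposited by the authors holds normalised log2 signal, used here as an alternative. The authors' scanner files give probe positions in rn4.

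Here, 13371 outlier spot values were left out, the log2 processed signal was averaged over spots of a probe and quantile normalised within each sex, and a probe was kept if the scanner software called it well above background on 80% or more of any group's arrays (25866 probes in males, 25395 in females). No member spot was saturated. Groups were taken from the labels. The 3 groups of a sex were fitted together with limma 3.58.1 in R 4.3.3, with Benjamini-Hochberg adjustment over all kept probes at an FDR of 1% against sham and 5% between CLP hearts with and without landiolol. The difference between the sexes was an interaction over all 32 arrays at 5%. The arrays were of separate animals, and p-values measure the spread between them. The number of arrays limits the precision.

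The members and lists were chosen with earlier results of these data known. Crem and genes with disagreeing probes were described by all their probes, some of these in CLP vs sham only, and the rest by the brightest one. From each pathway list the called genes were named, and 5 genes by likeness to Crem. Alternatives were the FDR level, SAM with 100 permutations, scaling to the 75th percentile, normexp with an offset of 50, both other filters, fitting only the groups compared, slide as a term, normalisation of all arrays together, the authors' values, each array left out, and the array row, added after seeing the data. The fits were also run on simulated data with independent normal noise. That noise holds no slide, row or single-heart effects, so the run says nothing about those.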

Additional observations from a re-analysis of the deposited data

Results flagged for a closer look

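Among 78 groups of 5 or 6 hearts, counted once per probe and tested for a single value far from the rest, 6 held one. Chance gives about 1 in 20 for independent groups with normal spread. The probes were read in the same hearts, and those of Crem varied together, so the count cannot be set against that rate. For Crem, 1 female CLP heart stood high on A_44_P1159378 at 13.24, with the next at 12.64, and 1 female CLP plus landiolol heart stood low on A_64_P126493 at 7.63, with the next at 8.90. Nr4a1 was low in 1 female sham heart at 12.67, where the next was 14.78. The same heart was the lowest of the 5 female sham hearts for Nr4a2, Nr4a3, Fos, Fosb, Egr1 and Junb. Nr4a2 A_44_P1086200 was low in 1 male sham heart at 10.66, within a narrow group whose next value was 10.86. Creb1 A_44_P1109204 was high in 1 male CLP heart at 9.52, with the next at 9.06. Crtc1 A_44_P1113664 was high in 1 female CLP plus landiolol heart at 9.83, with the next at 9.42.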

How the results depend on the processing

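Of the 25 member probes, the 4 called for male CLP vs sham became 7 at an FDR of 5% and 7 with SAM, and stayed 4 under the other settings. There 16% of all probes were called at 5% and 10.1% with SAM. The added probes at 5% were Crtc1 A_44_P1113664, Crtc3 A_44_P823554 and Nr4a2 A_44_P1086200. The 0 for female CLP vs sham became 2 at 5% and 2 with SAM, and 1 each with scaling to the 75th percentile, normexp and slide as a term. Over all probes 9.17% were called there at 5% and 5.04% with SAM. The shares were 3.4% with that scaling, 3.93% with normexp and 3.5% with slide as a term. The 2 for female CLP plus landiolol vs CLP became 1 with slide as a term and 0 at 1%, with scaling to the 75th percentile, no filter, the filter over all arrays of the sex, only the groups compared, all arrays normalised together, and the array row as a term, which was chosen after seeing the data. They stayed 2 with SAM, normexp and the authors' values, where 0.233%, 0.138% and 0.118% of all probes were called. The 0 for female CLP plus landiolol vs sham became 1 at 5% and 1 with SAM, beside 12.8% and 11.5% of all probes. The causes were not tested. Leaving out single hearts gave 4 to 5 for male CLP vs sham and 4 to 5 for male CLP plus landiolol vs CLP. It gave 0 to 2 for female CLP vs sham, moving without CLP replicate 5 (2), CLP plus landiolol replicate 3 (1) and CLP plus landiolol replicate 4 (2). It gave 0 to 2 for female CLP plus landiolol vs CLP, with 2 called only without CLP replicate 5 or CLP plus landiolol replicate 3, 1 without sham replicate 4 and 0 without any other heart. The remaining counts stayed at 0. No fold change of a called gene reversed. Over all probes, male CLP vs sham gave 4134 calls at 5%, male CLP plus landiolol vs CLP gave 86 (FDR 1%) to 839 (SAM), female CLP vs sham gave 337 with the array row, female CLP plus landiolol vs CLP gave 0 to 59, and female CLP plus landiolol vs sham gave 20 with the array row. The sex difference in CLP vs sham gave 10 calls with the authors' values. No paired analysis was possible because GEO's labels number no replicates, and the replicate numbers used here follow the order of the samples and only name a heart. Dim probes limit what can be read for Crem A_44_P1089096, Crtc1 A_44_P1086739, Nr4a2 A_44_P1103595 and most Crtc3 probes.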
